A study of Mus musculus with 20 samples.

Results

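In mouse gastric organoids, 6 genes that were lower in p53 knockout (KO) than in wild-type (WT) lines, and that are less often described as p53 genes, were followed across every line and library. They were the epoxide hydrolase gene Ephx1, the lipid hydrolase gene Abhd4, the phosphatase gene Ptp4a3, the exocyst gene Exoc4, the kinase-inhibitor gene Fam212b and the long noncoding RNA gene Trp53cor1. These were 6 of the 24047 genes in the count table. They were selected on their measured counts, being lower in KO lines, so their KO against WT values are a description and carry no test. All 6 passed the filter on low counts that left 13476 genes, which says nothing further about them since the WT lines alone could carry a gene through it.

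Gastric organoids are 3-dimensional cultures of stomach epithelium, here on the BL/6 background and in conditioned medium. Messenger RNA was sequenced in 20 libraries from 8 lines, and a line is the number that opens each library title. Among the KO lines, the KO of 1270 (non-dysplastic) was made ex vivo, while that of 650 (non-dysplastic) and of 794 and 801 (both dysplastic) was made in vivo. WT lines 300 and 1269 were non-dysplastic and WT lines 565 and 752 were dysplastic. Dysplastic lines had 3 libraries each and non-dysplastic lines 2, so that KO and WT had 10 libraries each. The labels name neither the p53 allele nor a driver of the deletion. Nothing in them ties each line to an animal of its own. Any p-value here therefore sets a difference only against the spread between these lines, and that spread may be technical.

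The p53 protein, encoded by Trp53, is a transcription factor that is held low by the ligase Mdm2 and accumulates after DNA damage and other stress. It binds pairs of short half-sites in DNA and activates genes that stop the cell cycle, repair DNA, trigger apoptosis or alter metabolism. In human gastric cancer the p53 gene is among the most often mutated genes.

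Library totals ran from 5669521 to 16323270 counts. Values are given as CPM, the count of a gene per fixed amount of sequenced reads, scaled by TMM, a factor that puts libraries on a common level. Trp53 itself lay between 4.43 and 32.8 CPM in the KO libraries and between 98.1 and 165 CPM in the WT libraries. The 13 gastric epithelial markers, among them Epcam, Cdh1, Krt8 and Muc6, summed to 13700 to 21300 CPM in KO lines and 14100 to 19600 CPM in WT lines, with none at 0 and Tff1 below 1 CPM. The 6 fibroblast markers summed to 6.09 to 34.5 CPM in KO lines, highest in line 650, and 5.1 to 7.41 CPM in WT lines. The 6 immune markers summed to 0.605 to 1.99 CPM in KO lines and 1.05 to 1.87 CPM in WT lines, with 2 at 0 throughout, and the 3 endothelial markers to 0.518 to 3.29 CPM in KO lines and 0.437 to 0.954 CPM in WT lines. By Xist and Ddx3y counts, lines 650 and 300 were male and the other 6 female. A set of 6 libraries, 1 from each line except 1270 and 1269, stood apart from their sisters in the same direction along the first component of within-line variation, which carried 65.7% of it. Values without them stand beside the results where they differ most.

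The regions just upstream of the start sites were read first, because p53 acts through DNA and 2 of the 6 genes hold a p53 half-site there. The RefSeq promoter table (GRCm38.p6) had windows for 4 of the 6 genes. The 250 bases before each start were searched for the p53 half-site consensus, a motif of 10 letters that reads the same on both strands. Exoc4 had a match whose first base lay 203 bases before the start, in the window chr6:33248878-33249127 on the plus strand. Fam212b, listed there under its newer symbol Inka2, had a match 81 bases before the start in the second of its windows, chr3:105705208-105705457 on the plus strand. For comparison, the window chr17:29090729-29090978 (plus strand) of Cdkn1a, the cell cycle inhibitor gene and best known p53 target, had matches that began 73 and 51 bases before the start. Half-sites are in capitals:
Exoc4: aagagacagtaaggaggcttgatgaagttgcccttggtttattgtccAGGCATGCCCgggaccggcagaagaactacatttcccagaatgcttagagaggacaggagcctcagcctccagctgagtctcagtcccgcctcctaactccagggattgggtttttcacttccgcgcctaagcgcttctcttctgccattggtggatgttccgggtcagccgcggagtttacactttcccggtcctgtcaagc
Fam212b: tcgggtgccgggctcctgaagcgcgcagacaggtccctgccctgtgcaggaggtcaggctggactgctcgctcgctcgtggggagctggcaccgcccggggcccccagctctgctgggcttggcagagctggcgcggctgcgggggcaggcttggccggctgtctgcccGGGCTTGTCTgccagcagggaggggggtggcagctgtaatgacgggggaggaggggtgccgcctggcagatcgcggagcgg
Cdkn1a: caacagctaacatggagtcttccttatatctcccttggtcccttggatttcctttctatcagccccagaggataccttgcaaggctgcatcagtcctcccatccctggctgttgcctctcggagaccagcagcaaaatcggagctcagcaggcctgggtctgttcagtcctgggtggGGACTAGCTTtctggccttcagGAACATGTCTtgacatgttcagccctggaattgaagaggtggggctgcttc
The matched letters were AGGCATGCCC in Exoc4, GGGCTTGTCT in Fam212b, and GGACTAGCTT and GAACATGTCT in Cdkn1a, with no overlap between matches. The Ephx1 window, both Abhd4 windows, the first Fam212b window and the second Cdkn1a window held none. In all, 2 of 6 windows of these genes had a match, against 7.13% of the 32851 windows in the table. A match describes the letters and is not evidence of a bound site.

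For all 6 genes the highest KO line lay below the lowest WT line. Such a separation occurred in 1.46% of tested genes, and the opposite one in 0.92%, a background from which nothing is read here because this contrast chose the genes. Their median log2 fold change of KO over WT was -1.58, and that of all tested genes was -0.0058. The sizes differed widely. By the fitted log2 fold change, Fam212b stood at 10.8% of the WT level in KO lines, Trp53cor1 at 22.7% and Ephx1 at 30.4%. Ptp4a3 stood at 36.6%, Exoc4 at 50.6% and Abhd4 at 68.7%. Abhd4 had the smallest difference of the 6, and 3.64% of tested genes had a lower log2 fold change than it. Without the 6 libraries that stood apart the log2 fold changes were -3.39 for Fam212b, -2.23 for Trp53cor1, -1.66 for Ephx1, -1.47 for Ptp4a3, -0.97 for Exoc4 and -0.50 for Abhd4. In bulk RNA, fewer cells that express a gene and less RNA per cell cannot be told apart, which holds for each value below.

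**Figure D1:**
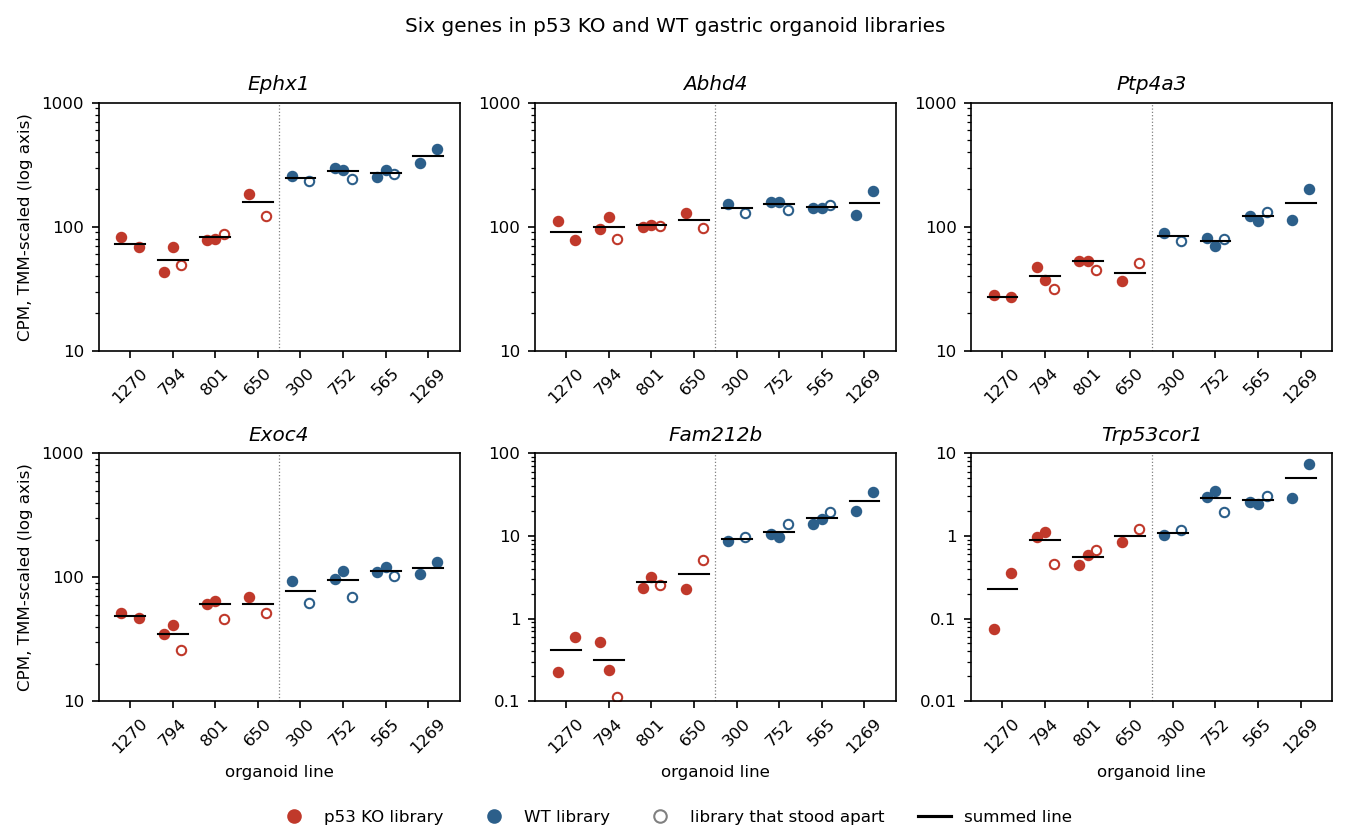
CPM of each gene on a log axis in every library (points) and in each summed line (bars), with KO lines left of WT lines and, within each genotype, lines ordered by Trp53; open points are the 6 libraries that stood apart. KO and WT libraries do not overlap for Ephx1, Ptp4a3 and Fam212b, while a few overlap for Abhd4, Exoc4 and Trp53cor1, and line 1269 is the highest WT line in all 6 panels.

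Ephx1 encodes the microsomal epoxide hydrolase, which turns reactive epoxides of drugs and carcinogens into diols. With line numbers in parentheses, it stood at 73.3 CPM (1270), 53.8 (794), 82.2 (801) and 157 (650) among KO lines, against 246 CPM (300), 280.3 (752), 269 (565) and 370.4 (1269) among WT lines. Line 650 was well above the other KO lines, and its libraries did not overlap those of line 801. By library the lowest, median and highest values were 42.9, 78.8 and 185 CPM in KO and 232, 276 and 422 CPM in WT, with no overlap. The means were 91.6 ± 45.3 CPM in KO lines and 292 ± 54.4 CPM in WT lines over 4 lines each (± SD, as for all means below), and the log2 fold change was -1.72 ± 0.29 (SE). The lines of the other epoxide hydrolases overlapped between genotypes. Ephx2, the soluble enzyme, averaged 12.4 ± 5.51 CPM in KO lines and 17.5 ± 6.16 CPM in WT lines, and Ephx4 averaged 6.37 ± 0.90 CPM in KO lines and 7.004 ± 1.57 CPM in WT lines. Their log2 fold changes were -0.46 ± 0.35 and -0.14 ± 0.25 (SE). Ephx3 was too low to be tested.

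Abhd4 encodes an alpha/beta hydrolase that, in mouse, removes acyl chains from N-acyl phospholipids on the way to N-acylethanolamines, a class of lipid messengers. Its lines were the most alike. KO lines stood at 91.3 CPM (1270), 100.3 (794), 103 (801) and 114 (650), against 141 CPM (300), 153 (752), 145 (565) and 157 (1269) among WT lines. The highest KO line was 1.25 times the lowest, and the highest WT line 1.12 times the lowest. By library the values ran from 77.9 over a median of 101 to 128 CPM in KO and from 125 over 146 to 193 CPM in WT, and 1 KO library reached the lowest WT library. The means were 102 ± 9.58 CPM in KO lines and 149 ± 7.36 CPM in WT lines, with a log2 fold change of -0.54 ± 0.11 (SE). All 9 other genes in a list of N-acylethanolamine enzymes and of the hydrolase genes Abhd6 and Abhd12 were tested. Their median log2 fold change was -0.03, with 5 negative, and none separated by genotype. Naaa, which hydrolyses these lipids, had the highest at 0.23 ± 0.25. Pla2g4e, a phospholipase that makes their precursor, had the lowest at -0.74 ± 0.97, with levels near 1 CPM. Napepld, the main route of synthesis, had -0.03 ± 0.35, and Faah, the main hydrolase, 0.05 ± 0.15 (SE).

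Ptp4a3 encodes PRL-3, a membrane-anchored phosphatase of the PRL family known from metastatic tumours, whose members bind the CNNM magnesium transporters. It stood at 26.9 CPM (1270), 39.8 (794), 52.7 (801) and 42.7 (650) among KO lines, against 83.7 CPM (300), 77.0 (752), 123.0 (565) and 156 (1269) among WT lines. Unlike the other 5 genes, its highest KO line was 801 and its lowest WT line 752, both dysplastic. Libraries ran from 27.0 over a median of 40.9 to 53.3 CPM in KO and from 70.4 over 101 to 204 CPM in WT, without overlap. The means were 40.5 ± 10.6 CPM in KO lines and 110 ± 36.9 CPM in WT lines, a log2 fold change of -1.45 ± 0.28 (SE). Neither other PRL gene showed such a gap. Ptp4a1 averaged 18.8 ± 3.45 CPM in KO lines and 18.5 ± 1.34 CPM in WT lines, and Ptp4a2 356 ± 24.7 CPM in KO lines and 363 ± 11.4 CPM in WT lines. Cnnm2, Cnnm3 and Cnnm4 had log2 fold changes of -0.10 ± 0.18, -0.15 ± 0.17 and 0.01 ± 0.13 (SE), and Cnnm1 was too low to be tested.

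Exoc4 encodes a subunit, also called Sec8, of the exocyst, the complex that tethers secretory vesicles to the plasma membrane. It stood at 48.3 CPM (1270), 34.7 (794), 60.6 (801) and 60.9 (650) among KO lines, against 77.8 CPM (300), 95.3 (752), 111 (565) and 119 (1269) among WT lines. Its libraries ran from 25.7 over a median of 49.2 to 68.7 CPM in KO and from 61.8 over 104 to 133 CPM in WT. The overlap came from a single WT library of line 300 at 61.8 CPM, which is among the 6 that stood apart. Exoc4 was lower in all 6 of those libraries than in their sisters, by a median log2 ratio of -0.49. The means were 51.1 ± 12.4 CPM in KO lines and 101 ± 18.2 CPM in WT lines. The log2 fold change was -0.98 ± 0.23 (SE). The other 8 tested exocyst genes had a median log2 fold change of -0.06, ranging from -0.37 in Exoc2 to 0.11 in Exoc6. KO lines lay below WT lines for 2 of them, against 1.46% of all tested genes. These were Exoc2, with a log2 fold change of -0.37 ± 0.12, and Exoc7, with only -0.12 ± 0.09 (SE). Exoc2 averaged 39.6 ± 4.86 CPM in KO lines and 51.1 ± 2.12 CPM in WT lines, and Exoc7 averaged 61.9 ± 0.61 CPM in KO lines and 67.3 ± 3.65 CPM in WT lines.

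Fam212b, now called Inka2, encodes a small protein that in human cells binds and inhibits the kinase PAK4. Its KO lines spread more widely than those of the other 5 genes. They stood at 0.421 CPM (1270), 0.317 (794), 2.74 (801) and 3.47 (650), against 9.16 CPM (300), 11.2 (752), 16.6 (565) and 26.6 (1269) among WT lines. The KO lines formed a low pair and a high pair. Lines 1270 and 794 rested on 13 and 11 counts, with exact 95% Poisson intervals of 0.224 to 0.720 and 0.158 to 0.568 CPM. Lines 801 and 650 rested on 84 and 80 counts, with intervals of 2.19 to 3.39 and 2.75 to 4.32 CPM. These intervals cover counting error only. By library the values ran from 0.114 over a median of 1.44 to 5.08 CPM in KO and from 8.56 over 14.0 to 33.8 CPM in WT, without overlap. The means were 1.74 ± 1.61 CPM in KO lines and 15.9 ± 7.82 CPM in WT lines, and the fitted log2 fold change was -3.20 ± 0.87 (SE). It was -4.29 without line 650 and -4.33 without line 801. Of the p21-activated kinases, Pak4 averaged 116 ± 11.4 CPM in KO lines and 104 ± 5.603 CPM in WT lines (log2 fold change 0.15 ± 0.12). Pak1, Pak2, Pak3 and Pak6 lay between -0.12 and 0.02 on the log2 scale. The paralog Fam212a was too low to be tested and Pak7 was at 0 in every line.

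Trp53cor1 is the long noncoding RNA known as lincRNA-p21, which p53 induces in mouse cells and which lies beside Cdkn1a on chromosome 17. Its counts were low in every line. KO lines stood at 0.227 CPM (1270), 0.894 (794), 0.555 (801) and 0.998 (650), against 1.10 CPM (300), 2.91 (752), 2.70 (565) and 5.01 (1269) among WT lines. Lines 650 and 300 each had 23 counts, and their exact 95% Poisson intervals of 0.632 to 1.497 CPM in KO line 650 and 0.695 to 1.65 CPM in WT line 300 overlap. Line 1270 had 7 counts. Libraries ran from 0.0743 over a median of 0.636 to 1.22 CPM in KO and from 1.012 over 2.73 to 7.36 CPM in WT, and 2 KO libraries reached the lowest WT library. Without the 6 libraries that stood apart, line 794 at 1.07 CPM lay above line 300 at 1.02 CPM, so that its lines no longer separated, whereas those of the other 5 genes did. The means were 0.668 ± 0.350 CPM in KO lines and 2.93 ± 1.60 CPM in WT lines. The log2 fold change of -2.14 ± 0.65 (SE) was -1.40 without line 1269 and -2.84 without line 650.

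The neighbours of Trp53cor1 did not share one pattern. Cdkn1a stood at 32.1 CPM (1270), 211 (794), 95.8 (801) and 196 (650) among KO lines, against 224 CPM (300), 275 (752), 287 (565) and 425 (1269) among WT lines. Its lines did not overlap, but KO line 794 came close to WT line 300, and its log2 fold change was -1.19 ± 0.56 (SE). Srsf3, a splicing factor gene on the other side, averaged 141 ± 10.8 CPM in KO lines and 143 ± 9.63 CPM in WT lines. Hnrnpk, whose protein binds lincRNA-p21, averaged 551 ± 29.6 CPM in KO lines and 575 ± 23.9 CPM in WT lines. Whether strand was used in counting is not given, so reads from opposite strands at these loci cannot be told apart.

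**Figure D2:**
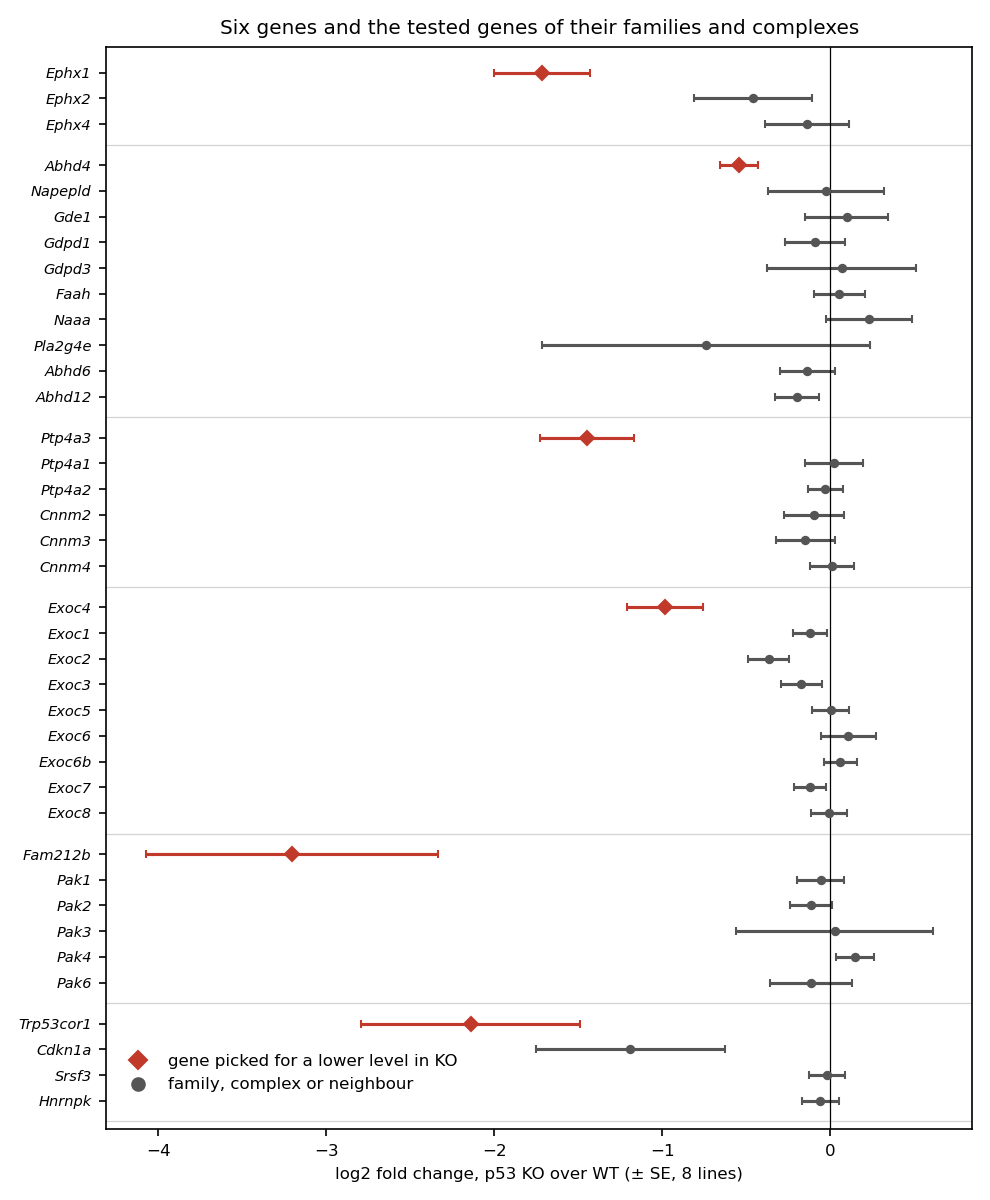
Log2 fold change of KO over WT (± SE, from 8 lines) for the 6 genes (diamonds) and for the tested genes of their families, complexes or loci (circles). The 6 genes run from -3.20 for Fam212b to -0.54 for Abhd4, whereas the relatives lie between -0.74 and 0.23 apart from Cdkn1a at -1.19.

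Of the 34 genes in a list of better known p53 targets, 33 were tested and 29 of them had a negative log2 fold change, against 51.5% of all tested genes. The list's median was -0.64, with a range from -3.29 to 0.22. EdgeR's quasi-likelihood test called none of the 33 after Benjamini-Hochberg adjustment, as it called none of the 13476 genes (0.0%, with 543 at an unadjusted p under 0.05). DESeq2 called 10 of the 33, against 0.549% of all tested genes. For 19 of the 33 every KO line lay below every WT line, against 1.46% of all tested genes. The list was chosen with earlier results of these data known, so nothing is read from how it compares with all tested genes. By the rule of highest level, the targets named are as follows. Ccng1, which encodes cyclin G1, averaged 136 ± 73.8 CPM in KO lines and 587 ± 240.3 CPM in WT lines. Bax, an effector of apoptosis, averaged 82.6 ± 16.1 CPM in KO lines and 171 ± 24.9 CPM in WT lines, and Ei24, a gene of the endoplasmic reticulum, 159 ± 25.5 CPM in KO lines and 248 ± 49.5 CPM in WT lines. Perp, a desmosome gene, and Btg2, an antiproliferative gene, overlapped between genotypes. Perp averaged 257 ± 93.3 CPM in KO lines and 290.4 ± 21.5 CPM in WT lines, and Btg2 averaged 231 ± 59.7 CPM in KO lines and 307 ± 22.3 CPM in WT lines.

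The KO lines kept different amounts of Trp53, and the 6 genes were set against this residual level. As a share of the WT mean within its own dysplasia class, Trp53 was at 3.66% (1270), 5.03% (794), 16.1% (801) and 19.8% (650). In that order of lines, Fam212b stood at 2.35%, 2.28%, 19.7% and 19.4%. Abhd4 followed the order exactly but over a narrow span, with 61.4%, 67.2%, 69.1% and 77.0%. Ephx1 stood at 23.8%, 19.6%, 29.9% and 51.0%, and Exoc4 at 49.1%, 33.6%, 58.6% and 62.0%, both lowest in line 794. Ptp4a3 stood at 22.5%, 39.8%, 52.7% and 35.6%, highest in line 801. Trp53cor1 stood at 7.43%, 31.9%, 19.8% and 32.7%, with line 794 out of order. Line 650, with the most Trp53, held at most 77.0% and at least 19.4% of the WT level of any of the 6 genes. Without the 6 libraries that stood apart, the same order of lines gave 3.53%, 3.85%, 16.2% and 16.2% for Trp53 and 2.39%, 3.13%, 22.1% and 13.1% for Fam212b. It gave 59.0%, 72.4%, 68.3% and 83.5% for Abhd4, 23.3%, 20.05%, 28.5% and 59.1% for Ephx1, and 45.6%, 35.1%, 58.1% and 65.4% for Exoc4. For Ptp4a3 it gave 21.9%, 44.6%, 56.0% and 29.9%, and for Trp53cor1 7.53%, 36.9%, 18.2% and 28.1%.

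**Figure D3:**
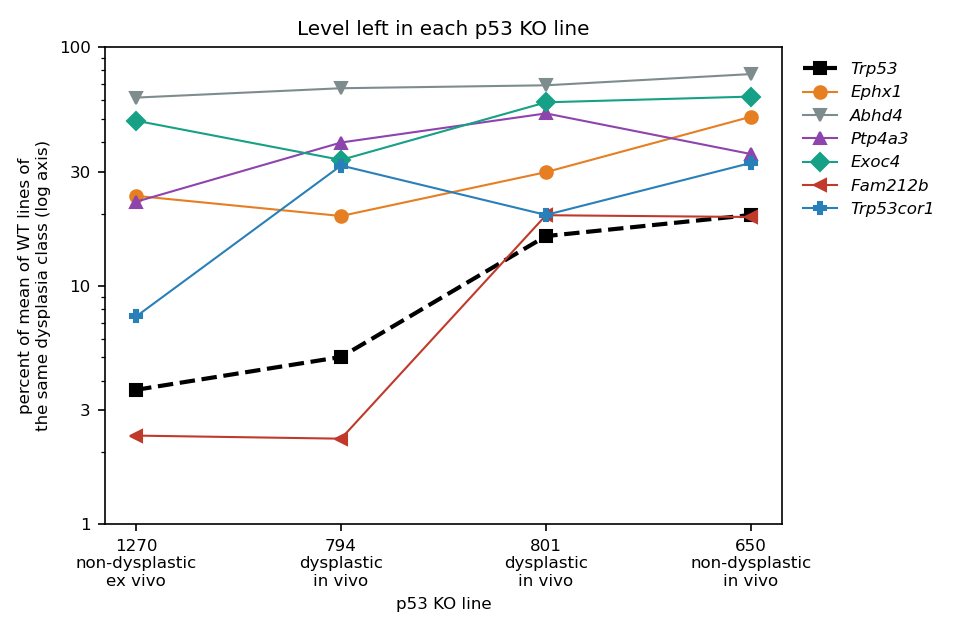
Level left in each KO line as a percent of the WT mean within its dysplasia class (log axis), with lines from least to most Trp53 and segments only to guide the eye. Fam212b and Trp53 are both at or below 5.03% in lines 1270 and 794 and at 16.1% to 19.8% in lines 801 and 650, while Abhd4 stays between 61.4% and 77.0% and is the highest gene in all 4 lines.

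Counted over the 6 pairs of KO lines, each of the 6 genes had at least 5 pairs in the order of Trp53, as 13.6% of tested genes did, and the sum was 31 of 36 pairs. The mean over tested genes was 2.98 of 6 pairs. For Trp53 itself, neighbouring KO lines were clear of library overlap only between lines 794 and 801. The order of lines 1270 and 794, and that of lines 801 and 650, is thus not settled by their libraries. Among neighbouring WT lines, Trp53 was clear of overlap only between lines 752 and 565. Over the 6 pairs of WT lines, where Trp53 ranged only from 112 CPM in line 300 to 161 CPM in line 1269, each gene again had at least 5 pairs in order, as 28.7% of tested genes did, and the sum was 32 of 36. Exoc4 and Fam212b followed the WT order in all 6 pairs. With total counts the KO sum was 29 of 36. The counts also depended on the 6 libraries that stood apart, more so in KO lines. Without them the sum was 25 of 36 in KO lines and 30 of 36 in WT lines. Trp53cor1 then had 3 of 6 pairs in order in KO lines, and no gene followed the KO order in full. Ephx1, Abhd4 and Exoc4 had 4 KO pairs, and 34.4% of tested genes had as many or more. Abhd4 had 3 WT pairs, and 58.8% of tested genes had as many or more. Line 801, at 23.2 CPM of Trp53, then lay just above line 650, at 22.8 CPM. The genes also share these lines, so the counts of the 6 are not independent of each other. They were chosen with earlier results of these data known, so nothing is read from how their counts compare with all tested genes.

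Other features also differed between these lines. Line 650 was the highest KO line for 5 of the 6 genes and line 300 the lowest WT line for 5, and these are the male lines. With sex as a covariate the log2 fold changes of KO over WT ran from -3.35 for Fam212b to -0.55 for Abhd4, near the values above. As each genotype has a single male line, that fit could move these values little. It does not address the order of lines within a genotype. Line 650 also had the highest sum of fibroblast markers, 34.5 CPM. The surface mucous cell genes Muc5ac and Gkn1 were high in KO lines 1270 and 794, which had the least Trp53. Both were higher in line 794 than in line 1270, so they did not follow the order of Trp53. Muc5ac stood at 185 CPM (1270), 461 (794), 1.63 (801) and 1.87 (650), and at most 8.54 CPM in WT lines. Gkn1 stood at 463 CPM (1270), 3760 (794), 43.8 (801) and 22.4 (650), and between 35.6 and 160 CPM in WT lines. Gkn2 stood at 417 CPM (1270), 390 (794), 10.5 (801) and 15.1 (650), whereas Tff1 stayed below 1 CPM in every line. The part of sex, fibroblast content or surface mucous genes in the line differences was not tested.

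Ranked by level, neighbouring lines often overlapped in their libraries. Of the 7 neighbour pairs, libraries overlapped in 7 for Abhd4, 6 for Exoc4, 5 for Trp53cor1 and 4 each for Ephx1, Ptp4a3 and Fam212b. The steps that were clear of overlap were few. For Ephx1 they lay between lines 801 and 650, between lines 650 and 300 and between lines 752 and 1269. For Fam212b they lay between lines 1270 and 801, between lines 650 and 300 and between lines 565 and 1269. For Ptp4a3 they lay between lines 1270 and 794, between lines 801 and 752 and between lines 300 and 565. For Exoc4 there was 1 such step, between lines 794 and 1270, and for Trp53cor1 they lay between lines 1270 and 801 and between lines 300 and 565. Line 1269 was the highest WT line for all 6 genes.

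Tests were run on 3 comparisons other than KO against WT, the contrast that chose the genes. Between dysplastic and non-dysplastic lines no difference of the 6 genes passed. Dysplastic lines averaged 171 CPM of Ephx1 and non-dysplastic lines 212 CPM, a log2 difference of -0.46 ± 0.28 (SE) with an adjusted p of 0.98 in edgeR's quasi-likelihood test. That difference was -0.14 without line 650 and -0.69 without line 1270. In dysplastic lines the means were 125.5 CPM for Abhd4, 73.1 for Ptp4a3, 75.5 for Exoc4, 7.71 for Fam212b and 1.76 for Trp53cor1. In non-dysplastic lines they were 125.8 CPM for Abhd4, 77.3 for Ptp4a3, 76.5 for Exoc4, 9.92 for Fam212b and 1.83 for Trp53cor1. The log2 differences of these 5 genes lay between -0.35 and 0.07, with SEs from 0.11 to 0.81, and each had an adjusted p of 1.0 in edgeR. For Ptp4a3 and Trp53cor1 the fitted difference, a mean of log2 ratios within each genotype, was 0.07 although the plain mean was lower in dysplastic lines. Without the 6 libraries the differences ran from -0.53 for Ephx1 to 0.30 for Trp53cor1, with -0.08 for Fam212b. None of the 6 was called, against 0.0% of all tested genes in edgeR (797 at an unadjusted p under 0.05) and 1.14% in DESeq2.

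The KO effect was then compared between dysplasia classes. Within dysplastic lines the KO mean was 24.7% of WT for Ephx1, 46.2% for Ptp4a3 and 46.1% for Exoc4, and within non-dysplastic lines it was 37.4% for Ephx1, 29.0% for Ptp4a3 and 55.5% for Exoc4. Fam212b stood at 11.0% in dysplastic and 10.9% in non-dysplastic lines, Abhd4 at 68.1% in dysplastic and 69.2% in non-dysplastic lines, and Trp53cor1 at 25.8% in dysplastic and 20.1% in non-dysplastic lines. As log2 differences of the effect, Ptp4a3 had the highest at 0.67 ± 0.55 (0.09 without line 1269 and 1.05 without line 300, and between these without any other line) and Ephx1 the lowest at -0.60 ± 0.56 (SE), which was -1.08 without line 1270 and 0.05 without line 650. Each had an adjusted p of 1.0 in edgeR. Without the 6 libraries the difference was 0.81 for Fam212b, 0.76 for Trp53cor1, 0.96 for Ptp4a3 and -0.76 for Ephx1. None of the 6 was called, and neither edgeR nor DESeq2 called any gene (0.0%), with 241 genes at an unadjusted p under 0.05 in edgeR. The SEs of 1.66 for Fam212b and 1.26 for Trp53cor1 leave differences of several fold undetectable with 2 lines in each class and genotype.

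Line 1270, with the KO made ex vivo, was lower than line 650, with the KO made in vivo, for all 6 genes, as it was for Trp53 (4.99 against 26.9 CPM). The log2 difference was -1.10 ± 0.40 for Ephx1, -0.32 ± 0.20 for Abhd4, -0.66 ± 0.53 for Ptp4a3 and -0.33 ± 0.46 for Exoc4. It was -3.03 ± 1.53 for Fam212b and -2.11 ± 1.21 for Trp53cor1 (SE). With sex as a covariate these were -1.68 for Ephx1, -0.48 for Abhd4, -1.55 for Ptp4a3, -0.94 for Exoc4, -4.56 for Fam212b and -4.29 for Trp53cor1. In that fit the sex term comes only from WT lines 300 and 1269, the only lines of a shared group that differ in sex. Each value with sex therefore carries the difference between those WT lines, and nothing is read from its size. Without the 6 libraries that stood apart, 1 of them from line 650, the log2 differences were -1.34 for Ephx1, -0.50 for Abhd4, -0.45 for Ptp4a3, -0.52 for Exoc4, -2.43 for Fam212b and -1.87 for Trp53cor1. None passed, with adjusted p from 0.70 for Ephx1 to 0.85 for Exoc4 in edgeR's test, and none of the 14057 genes tested was called (0.0%, with 967 at an unadjusted p under 0.05). DESeq2 called 1.36% of genes and none of the 6. With 1 line a side the mode of KO, the line and its sex cannot be told apart, and the spread was taken from the other groups. Lines 1270 and 650 also had the least and the most Trp53 of the KO lines. The genes were chosen with earlier results of these data known, so nothing is read from their shared direction.

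**Figure D4:**
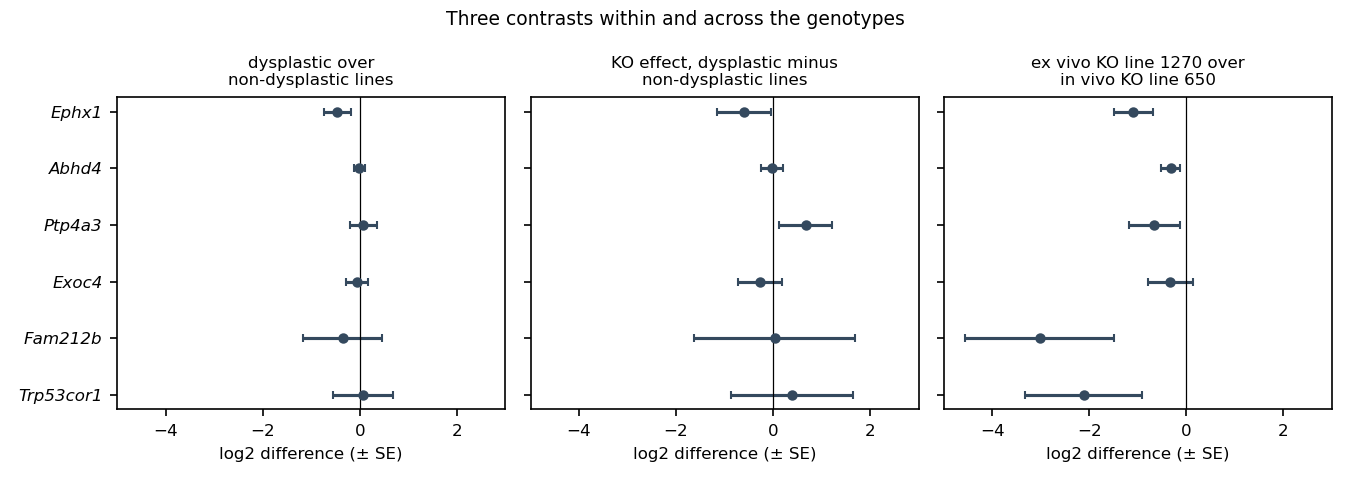
Log2 difference (± SE) of each gene for dysplastic over non-dysplastic lines, for the KO effect in dysplastic minus that in non-dysplastic lines, and for ex vivo KO line 1270 over in vivo KO line 650. All 6 genes are below 0 in the third panel, from -3.03 to -0.32, while the first runs from -0.46 to 0.07 and the second from -0.60 to 0.67.

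The genes whose pattern over the 8 lines was most like that of each of the 6 were found by Pearson's r of log2(CPM + 1) among 10454 tested genes with a mean of at least 5 CPM. Points share their genotype, so a KO to WT gap in both genes gives a high r. Ephx1 was most like Zmat3, an RNA-binding protein gene (r = 0.98), Ccng1 (0.98) and Trim11 (0.98). Exoc4 was also most like Zmat3 (0.98), then Mtfr1l (0.98) and Aen, a nuclease gene (0.97). Fam212b was most like Zmat3 (0.99), Lzic (0.99) and Ccng1 (0.99). Trp53cor1 was most like Klhl26 (0.98), Trp53inp1 (0.98) and Sesn2, a stress-response gene (0.97). Abhd4 was most like Tob1, an antiproliferative gene (0.98), Trp53 itself (0.98) and 9030617O03Rik (0.97). Ptp4a3 was most like Inf2 (0.97), Psrc1 (0.97) and Itgb4 (0.97), the integrin chain of hemidesmosomes. Of the 15 genes named, 6 were in the p53 target list, from which nothing is read because the 6 genes were picked for the same gap. Zmat3, named for 3 of the 6 genes, averaged 37.3 ± 13.4 CPM in KO lines and 118 ± 35.7 CPM in WT lines.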

How the data were processed

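Messenger RNA was sequenced from 20 libraries of mouse gastric organoids, made with an mRNA kit from total RNA per the labels' protocols. The authors deposited raw counts of reads per gene symbol, with no normalization. STAR 2.5, bcl2fastq and build mm9 are named per the submitters' processing notes. Not given in the sources used here were the gene annotation, the counting tool and the use of strand. Overlapping and antisense genes therefore cannot be told apart with certainty. Genotype, dysplasia and mode of KO were read from the labels. The 6 genes and all gene lists were chosen with earlier results of these data known.

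Libraries of a line were summed, giving 8 lines, since they share every label. Between libraries of a line, chi-square per degree of freedom was at least 5.84, so no library was treated as a copy. Line counts were filtered with filterByExpr (18180 genes had a count, 13476 were tested), scaled by TMM and fitted with 1 mean per genotype and dysplasia combination, leaving 4 residual degrees of freedom, or with 1 mean per group for ex vivo against in vivo, leaving 3. EdgeR 4.0.16 (robust quasi-likelihood) in R 4.3.3 was used with Benjamini-Hochberg adjustment over all genes tested and a threshold of 0.05. An SE is the log2 fold change divided by the square root of F. Mean ± SD is over lines. Ratios of libraries to their sisters had 0.5 CPM added. Alternatives were DESeq2 1.42.0, limma-voom (limma 3.58.1) with lines as correlated blocks, size factors, total counts, no filter, sex as a covariate, leaving out the 6 libraries, and leaving out each line. Intervals are exact Poisson intervals at 95% and cover counting error only. The edgeR fit of KO against WT was also run on simulated data, with an outcome not reported here. Levels are not compared between genes, since no lengths were used.

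Named genes were, by rule, the 6 genes, Trp53, the members of their family lists, the 6 p53 targets with the highest mean CPM together with Cdkn1a, and the 3 genes most like each. Muc5ac, Gkn1, Gkn2, Tff1 and Zmat3's levels were picked out after their values were seen, as were the lines and libraries named singly. Sequences came from a RefSeq table of assembly GRCm38.p6, whose coordinates are not those of the build used for the counts.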

Additional observations from a re-analysis of the deposited data

How the results depend on the processing

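None of the 6 genes changed direction in KO against WT under the 15 settings tried. The count of genes whose lines did not overlap was 6 with size factors and with total counts, and 5 without the 6 libraries that stood apart. It stayed at 6 without any 1 line, as removing a line from groups already apart cannot make them overlap. Such a separation occurred in 1.46% of tested genes. Nothing is read from these counts, because KO against WT chose the genes. The number of genes called depended on the tool. In KO against WT, DESeq2 called 74, limma-voom 63 and limma-voom with a replicate block 50, against 0 in edgeR, and leaving out single lines gave 0 to 1. For dysplastic against non-dysplastic lines these were 153, 138 and 101, and sex as a covariate gave 1. For ex vivo against in vivo KO they were 191, 29 and 13, and no filter gave 1. The library numbers 1 and 2 did not pair the samples, whereas the 4 libraries with number 3, all among those that stood apart, deviated together. The deviations of libraries with the same number correlated at a mean of 0.253 for number 1, -0.06 for number 2 and 0.791 for number 3, and 9 of 20 libraries correlated best with their own number. The replicate block changed no call of the 6 genes.

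The number of genes in the exact order of residual Trp53 was 1, and 0 with total counts or without the 6 libraries. In the 3 comparisons other than KO against WT, no adjusted p of the 6 passed under the settings run. Among fits that kept every line, the lowest were 0.45 for dysplasia (Ephx1, limma-voom) and 0.95 for the difference of the KO effect (without the 6 libraries). Fits without 1 line went lower for the difference of the KO effect. They are not listed, as they leave a single line in a group. The lowest adjusted p for ex vivo against in vivo KO was below 0.45. It is not listed either, as that comparison had 1 line a side.

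Small differences changed sign. For dysplasia, Abhd4 had 0.0254 with the replicate block and 0.0371 with sex as a covariate, Exoc4 had 0.0222 with the replicate block, and Trp53cor1 had -0.0377 with sex as a covariate. Leaving out 1 line gave -0.0864 to 0.0783 for Abhd4, -0.12 to 0.34 for Ptp4a3, -0.29 to 0.11 for Exoc4, -1.47 to 0.74 for Fam212b and -0.30 to 0.81 for Trp53cor1. For the difference of the KO effect, Fam212b had -0.0263 with limma-voom. Leaving out 1 line gave -1.08 to 0.0492 for Ephx1, -0.22 to 0.14 for Abhd4, -0.73 to 0.0761 for Exoc4, -2.22 to 2.20 for Fam212b and -1.14 to 1.78 for Trp53cor1. The cause of these shifts was not tested. That includes the part of the low counts of Fam212b and Trp53cor1, which had 7 to 84 per KO line.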
